A study of Mus musculus with 6 samples.

Results

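Bone morphogenetic proteins (BMPs) are secreted ligands of the TGFβ superfamily that were first recognised by their ability to induce bone. Here 10 genes of this family were followed in cells of the mouse skull suture, 7 ligands (Bmp2, Bmp3, Bmp4, Bmp5, Bmp6, Bmp7 and Gdf10) and 3 receptors (Bmpr1a, Bmpr1b and Bmpr2). The genes were taken as BMP family members of skull bone, and each is read by 1 array feature that carries its symbol alone, among 19946 genes tested. Of the 10, 3 ligands were higher in Axin2+/GFP+ cells, namely Gdf10, Bmp3 and Bmp7, where 4.65% of all genes were higher, and 0 were lower, against 11.3% of all genes.

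The arrays compare 3 samples of Axin2+/GFP+ cells with 3 samples of Axin2-/GFP- cells, both sorted by GFP intensity from collagenase-digested calvarial suture mesenchyme at postnatal day 28. All mice carried Axin2rtTA, which places a doxycycline-dependent activator under the control of Axin2, and TRE-H2BGFP, a histone-GFP fusion that this activator switches on. All were given doxycycline from postnatal day 25, were of a mixed background of C57BL/6J, CD-1 and B6CBAF2, and both sexes were used in the study. The reporter marks whichever cells use the Axin2 control region, and each sample pooled the cells of 6 to 8 mice, so the spread is between pools. Axin2, which drives the reporter, had a log2 value of 2.83 ± 0.27 (SD) in the 3 Axin2+/GFP+ samples and 2.28 ± 0.10 (SD) in the 3 Axin2-/GFP- samples, a log2 change of 0.55 (limma, adjusted p = 0.0802).

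A BMP dimer binds a complex of type I and type II receptor kinases, of which Bmpr1a and Bmpr1b are type I and Bmpr2 is type II. The activated type I receptor phosphorylates Smad1, Smad5 or Smad9, which join Smad4 and enter the nucleus, where Id and Msx genes are among the targets. Secreted antagonists such as noggin hold the ligand away from its receptors, and the balance between ligand and antagonist is known to influence whether a suture remains patent or fuses. In the study, BMP2 was the factor added to transplanted suture cells to test their capacity to form cartilage.

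Values are RMA summaries on the log2 scale, and a difference of 1 is a doubling. RMA usually gives all arrays 1 distribution, but here the medians over all features were 2.73 to 2.74 in Axin2+/GFP+ samples and 2.61 to 2.62 in Axin2-/GFP- samples, and the upper quartiles were 3.72 to 3.76 in Axin2+/GFP+ samples and 3.97 to 3.999 in Axin2-/GFP- samples. Every change below is on these values as deposited unless another scaling is named. A gene was called where the limma test across all genes gave a Benjamini-Hochberg adjusted p under 0.05. By this rule 4.65% of the 19946 genes were higher in Axin2+/GFP+ cells and 11.3% were lower, 927 and 2262 genes. Median centring of the arrays gave 441 higher and 2760 lower, and the counts were 210 and 3980 when the arrays were centred on the olfactory and vomeronasal receptor genes, called chemoreceptor genes below. These 1194 genes serve chemical sensing in the nose, and their median log2 change was 0.30, beside 0.14 for all genes tested. The change varied with signal, so each called member is given below beside the genes of its own signal range. The median change was 0.27 where the mean log2 value lay under 2, 0.24 from 2 to 3, -0.04 from 3 to 4 and -0.51 from 4 to 5.

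**Figure D1:**
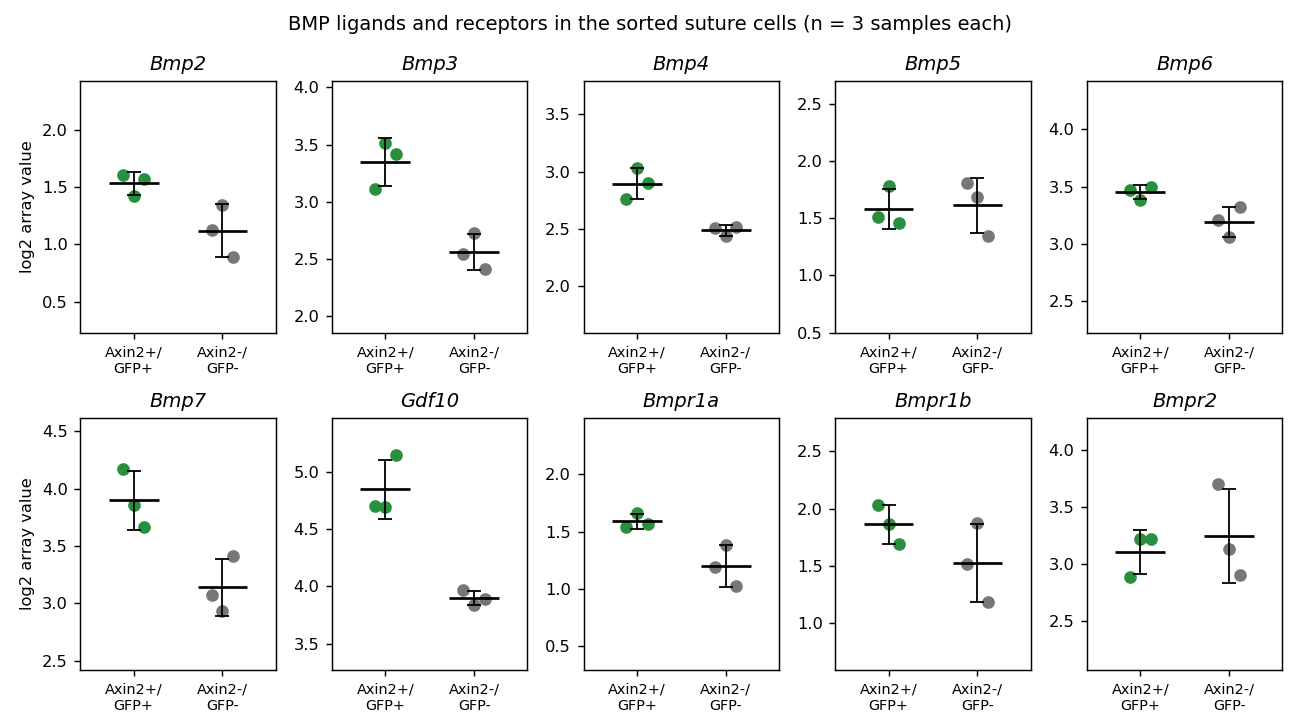
Log2 array values of the 10 BMP ligands and receptors in each sample (1 point per sample, bar at the mean, whiskers of 1 SD, n = 3 samples each), with Axin2+/GFP+ cells in green and Axin2-/GFP- cells in grey. Each panel spans the same number of log2 units but has its own range, since values of different features cannot be set against each other; the populations do not overlap for 7 genes and overlap for Bmp5, Bmpr1b and Bmpr2.

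Gdf10, also called BMP3B, is the closest relative of Bmp3 and had the largest change of the 10 genes. Its log2 values were 4.70, 4.69 and 5.14 in the Axin2+/GFP+ samples, against 3.97, 3.84 and 3.89 in the Axin2-/GFP- samples. The lowest Axin2+/GFP+ sample lay 0.72 above the highest Axin2-/GFP- sample. The log2 change was 0.95 (SE, the standard error, 0.18, 95% interval 0.53 to 1.37, limma, adjusted p = 0.0111), a fold of 1.93. This rise went against the genes of like signal, whose median change was -0.51 and of which 3.53% were called higher. Gdf10 was called in 15 of the 16 alternatives, with log2 changes from 0.63 to 1.30, and was lost in the methods' t-test after adjustment (adjusted p = 0.0625, from the same values). Of the chemoreceptor genes 0.168% in Axin2+/GFP+ and 0.419% in Axin2-/GFP- cells were at least as bright, a description only, since probes differ in affinity.

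Gdf10 lies at chr14:33923587-33936514 on GRCm38.p6. Its promoter window is shown because the call of this gene held in the most alternatives. The window holds 250 bases before and 50 bases after the RefSeq start on the plus strand, chr14:33923337-33923636. The window was searched on both strands for TATAAA, a core promoter element, for CTTTGA, the core of a TCF/LEF site, and for GGCGCC, a GC-rich Smad element. Capitals mark the only match, GGCGCC, which follows the start and overlaps no other motif.
Gdf10: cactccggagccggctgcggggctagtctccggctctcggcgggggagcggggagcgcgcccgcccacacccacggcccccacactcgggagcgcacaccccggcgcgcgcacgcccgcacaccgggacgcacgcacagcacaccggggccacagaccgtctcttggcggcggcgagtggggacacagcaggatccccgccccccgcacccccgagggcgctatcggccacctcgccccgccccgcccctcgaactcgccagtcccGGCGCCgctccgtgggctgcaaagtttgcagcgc
Of 32851 promoter windows in the RefSeq table, 13.6% hold TATAAA, 16.0% hold CTTTGA and 11.9% hold GGCGCC. The Gdf10 window is 77.3% G or C, a share reached by 2.25% of the windows, and has 42 CpG pairs against a median of 7. Windows were found for 7 of the 10 members, and among the other 6 only Bmpr1a and Bmpr2 also held GGCGCC, at 1 match each. Bmp2, Bmp3 and Bmp7 had no entry in the table.

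Bmp3, which encodes a ligand abundant in bone matrix that opposes osteogenic BMPs, was the second member called. The Axin2+/GFP+ samples read 3.11, 3.51 and 3.42, and the Axin2-/GFP- samples read 2.55, 2.73 and 2.41, so that no sample of one population reached the other. The log2 change was 0.78 (SE 0.18, 95% interval 0.37 to 1.204, limma, adjusted p = 0.0232), a fold of 1.72. Genes of like signal had a median change of 0.24, and 5.19% of them were called higher. The call of Bmp3 (chr5:98854415-98884053 on GRCm38.p6) held in 9 of the 16 alternatives. It ended when replicate 2 (log2 change 0.70) or 3 (0.75) of the Axin2+/GFP+ samples was left out, and without Axin2-/GFP- replicate 1 (0.78), 2 (0.87) or 3 (0.71), although the change stayed positive each time. It also ended when the arrays were centred on the chemoreceptor genes (0.47) and in the methods' t-test (adjusted p = 0.0770). Leaving out 1 Axin2-/GFP- sample also lowered the number of genes called higher over all genes, from 927 to between 239 and 288.

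Bmp7, also known as osteogenic protein 1, was the third ligand called higher. Its values of 4.18, 3.86 and 3.67 in Axin2+/GFP+ cells lay above those of 3.07, 2.93 and 3.41 in Axin2-/GFP- cells, with 0.25 between the nearest samples. The log2 change was 0.76 (SE 0.21, 95% interval 0.29 to 1.23, limma, adjusted p = 0.0403), a fold of 1.69, where genes of like signal had a median change of -0.04. This call, for a gene at chr2:172868012-172940321 on GRCm38.p6, was the least stable of the 3 and held in 7 of the 16 alternatives. The losses included the fits without Axin2+/GFP+ replicate 1 (0.62) or 2 (0.78), without Axin2-/GFP- replicate 1 (0.73), 2 (0.66) or 3 (0.90), after median centring (0.64), when centred on the chemoreceptor genes (0.44) and in the methods' t-test (adjusted p = 0.117).

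Bmp5 and Bmp6, which encode the ligands most similar to BMP7, were not called. Bmp6, which also acts in iron balance through hepcidin, read 3.47, 3.38 and 3.50 in Axin2+/GFP+ cells, against 3.21, 3.06 and 3.32 in Axin2-/GFP- cells. The populations did not overlap, but the nearest samples were 0.06 apart, and the log2 change of 0.26 (95% interval -0.12 to 0.63, limma, adjusted p = 0.290) turned to -0.06 when the arrays were centred on the chemoreceptor genes. Bmp5, the gene of the short ear mutation of the mouse, read 1.51, 1.78 and 1.46 in Axin2+/GFP+ cells, against 1.81, 1.69 and 1.34 in Axin2-/GFP- cells. These values overlapped throughout, and the log2 change of -0.03 had a 95% interval of -0.47 to 0.41 (limma, adjusted p = 0.922). Of the chemoreceptor genes 64.9% in Axin2+/GFP+ and 40.5% in Axin2-/GFP- cells were at least as bright as Bmp5.

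Bmp2 and Bmp4, the closely related ligands best known for bone induction and for patterning of the embryo, were likewise not called. Bmp4 read 2.76, 3.03 and 2.90 in Axin2+/GFP+ cells, against 2.51, 2.44 and 2.52 in Axin2-/GFP- cells. All Axin2+/GFP+ samples were the higher ones, and the log2 change was 0.41 (SE 0.16, 95% interval 0.04 to 0.78, limma, adjusted p = 0.119). For Bmp4 the interval before adjustment leaves out 0, while genes of like signal had a median change of 0.24. Bmp2 read 1.61, 1.42 and 1.57 in Axin2+/GFP+ cells, against 1.13, 1.35 and 0.89 in Axin2-/GFP- cells, with 0.07 between the nearest samples. Its log2 change was 0.41 (95% interval -0.0017 to 0.82, limma, adjusted p = 0.149), and a change of this size or more was found for 31.99% of the chemoreceptor genes. Of these genes 68.9% in Axin2+/GFP+ and 79.8% in Axin2-/GFP- cells were at least as bright as Bmp2. When the arrays were centred on the chemoreceptor genes, the log2 change was 0.09 for Bmp2 and 0.09 for Bmp4.

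None of the 3 receptors passed the test in limma or in the methods' t-test after adjustment, and at an unadjusted p under 0.05 each test called 1 of them higher, Bmpr1a, where limma called 16.3% of all genes higher and the methods' t-test 14.8%. Bmpr1a, the widely expressed type I receptor, read 1.54, 1.67 and 1.56 in Axin2+/GFP+ cells, against 1.19, 1.38 and 1.02 in Axin2-/GFP- cells. The groups did not overlap, and the log2 change was 0.39 (95% interval 0.0020 to 0.78, limma, adjusted p = 0.146), or 0.07 when centred on the chemoreceptor genes. Bmpr1b, the type I receptor known for its part in digit cartilage, read 2.03, 1.86 and 1.69 in Axin2+/GFP+ cells, against 1.51, 1.87 and 1.19 in Axin2-/GFP- cells. Axin2-/GFP- replicate 2 lay among the Axin2+/GFP+ samples, and the log2 change was 0.34 (95% interval -0.15 to 0.82, limma, adjusted p = 0.287). Both type I receptors were dim: of the chemoreceptor genes, 64.3% in Axin2+/GFP+ cells and 72.8% in Axin2-/GFP- cells were at least as bright as Bmpr1a, and 45.1% in Axin2+/GFP+ cells and 45.7% in Axin2-/GFP- cells were at least as bright as Bmpr1b. Bmpr2, the type II receptor shared by most BMPs, read 2.89, 3.22 and 3.22 in Axin2+/GFP+ cells, against 3.70, 3.14 and 2.91 in Axin2-/GFP- cells. The difference in log2 value of -0.14 (95% interval -0.67 to 0.39, limma, adjusted p = 0.678) rested on Axin2-/GFP- replicate 1, without which it was 0.087.

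**Figure D2:**
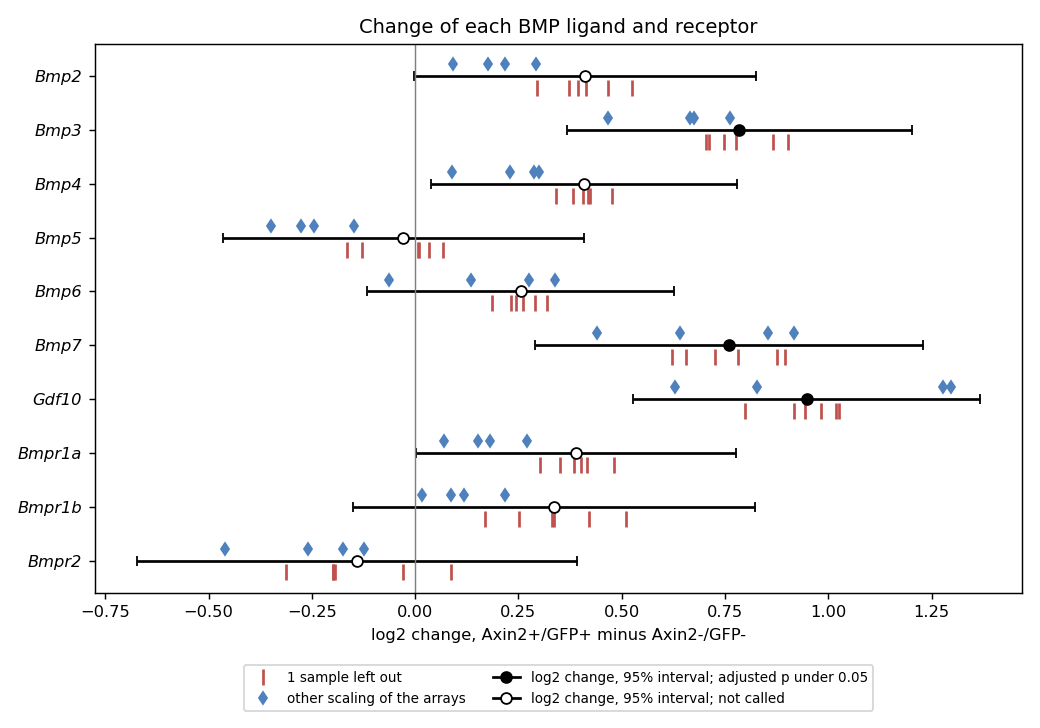
Log2 change between Axin2+/GFP+ and Axin2-/GFP- cells on the horizontal axis for each of the 10 genes, with the 95% interval from limma (filled circles: adjusted p under 0.05), the values under other scalings of the arrays above it and those with 1 sample left out below it. Gdf10, Bmp3 and Bmp7 stay above 0 at every mark, as do Bmp2, Bmp4, Bmpr1a and Bmpr1b, which were not called. The marks of Bmp5, Bmp6 and Bmpr2 fall on both sides of 0.

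Counted over the family, 3 of 10 genes were called higher, where the share over all genes was 4.65%, and 7 of 10 lay higher with no overlap between the populations, where the share was 23.2%. With no overlap, 0 of 10 lay lower, against 17.8% of all genes. Of the 1194 chemoreceptor genes, 377 lay higher with no overlap and 3 lower. Limma called 257 of these 1194 higher and 2 lower at an unadjusted p under 0.05. The 7 members that lay higher include the dim Bmp2 and Bmpr1a, at mean log2 values of 1.33 and 1.40. For each of these 7 the exact permutation test over samples gave a two-sided p of 0.1, the smallest that 3 samples against 3 allow. At an unadjusted p under 0.05, limma called 5 of the 10 higher, against 16.3% of all genes, and 0 lower, against 17.6%, and the methods' t-test called 7 higher and 0 lower, against 14.8% and 13.8% of all genes. After adjustment that test called 0 of the 10, and over all genes it called 1.06% higher and 2.60% lower. The median log2 change was 0.41 over the 7 ligands and 0.34 over the 3 receptors, beside 0.14 over all genes and 0.30 over the chemoreceptor genes. Differences between the changes of single members were not tested.

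**Figure D3:**
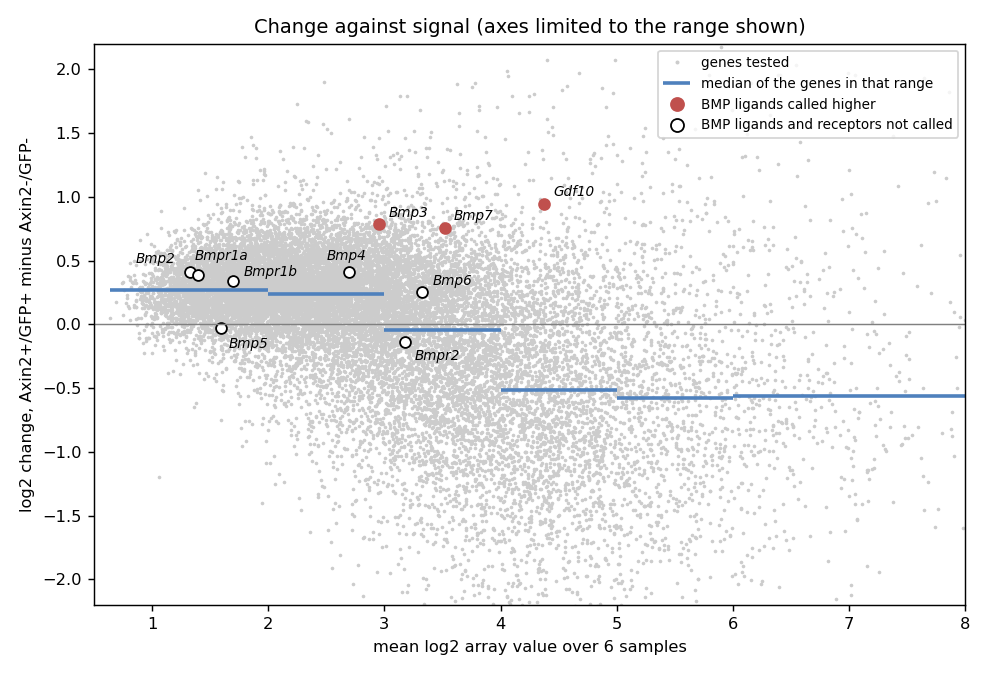
Log2 change between Axin2+/GFP+ and Axin2-/GFP- cells (vertical axis) by the mean log2 value over 6 samples (horizontal axis), with 1 grey point per gene, blue lines at the median change of each signal range, red points for the called ligands and open points for the other BMP ligands and receptors. Genes beyond the axes are not drawn. The blue lines lie at 0.27 and 0.24 in the dimmest ranges and at -0.51 from 4 to 5, where Gdf10 is found at a change of 0.95.

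The genes whose centred values over the 6 samples lay closest to those of the called ligands had mean log2 values from 1.78 to 3.88. For Gdf10 these were Tex22, Abca13, St6gal2, Serpina11 and Mtus1, at root mean square differences of 0.060 to 0.104 log2 units. For Bmp3 they were Sstr3, Abcc12, Tshz3, Mpp4 and Pik3cb, at 0.066 to 0.077, and for Bmp7 they were Tmem132b, Chrnb2, Dmrta1, Tgfa and Sirt5, at 0.042 to 0.091. None of these 15 genes belongs to the BMP lists examined. Those lists hold only a small part of the 16839 candidate genes, so this carries no conclusion about the pathway.

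Of 61 further measured genes of the pathway, 53 did not pass. Among the others 5 were higher and 3 were lower, against 4.65% and 11.3% of all genes. In the methods' t-test after adjustment, 1 of these 8 kept its call, Smad7. Adding the other BMP and GDF ligands gave no further call, since 0 of 12 passed in limma. At an unadjusted p under 0.05, 6 of these were higher in limma and 2 in the methods' t-test, against 16.3% and 14.8% of all genes. The median log2 change of these 12 was 0.42, like that of the 7 ligands above. Bmp8a, named after its values were seen, had a log2 change of 0.59 (limma, adjusted p = 0.107), with values of 3.79, 3.84 and 4.48 in Axin2+/GFP+ cells, against 3.66, 3.38 and 3.31 in Axin2-/GFP- cells.

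Among 10 other receptors and co-receptors, 8 had a positive change, and 0 were called lower, against 11.3% of all genes. Only Acvrl1 was called higher, against 4.65% of all genes. It encodes ALK1, a type I receptor best known from endothelium, and read 4.41, 4.27 and 4.14 in Axin2+/GFP+ cells, against 3.60, 3.40 and 3.61 in Axin2-/GFP- cells. The groups were well apart, with a log2 change of 0.74 (SE 0.17, limma, adjusted p = 0.0205). The call ended without Axin2-/GFP- replicate 1 (0.77), 2 (0.67) or 3 (0.78) and when centred on the chemoreceptor genes (0.42). Acvr1, the type I receptor mutated in human fibrodysplasia ossificans progressiva, had a log2 change of 0.01 (95% interval -0.44 to 0.47), which turned negative under 4 scalings of the arrays, down to -0.31. Eng, a co-receptor named after its values were seen, went the other way from Acvrl1. It read 2.88, 2.52 and 2.87 in Axin2+/GFP+ cells, against 2.98, 3.85 and 3.33 in Axin2-/GFP- cells (log2 change -0.63, limma, adjusted p = 0.109). In the same samples, 0 of 10 endothelial markers were called higher and 1, Pecam1, was lower, while 7 of the 10 had a positive change, with a median of 0.21 over the list. Their summed linear level ran from 61.8 to 67.9 in Axin2+/GFP+ samples and from 83.8 to 115.8 in Axin2-/GFP- samples. Without Pecam1 the sums overlapped, at 52.6 to 60.7 in Axin2+/GFP+ samples and 45.8 to 56.6 in Axin2-/GFP- samples, and the part of endothelial cells in the Acvrl1 values was not tested.

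Of 15 secreted antagonists, 1 was higher and 0 were lower, against 4.65% and 11.3% of all genes. Sost, the osteocyte gene of sclerostin, which acts mainly on Wnt co-receptors, read 3.78, 3.68 and 4.19 in Axin2+/GFP+ cells, against 2.82, 2.75 and 2.53 in Axin2-/GFP- cells. In Sost the log2 change reached 1.18 (SE 0.20; limma, adjusted p = 0.00543), a fold of 2.27, and the call was lost only in the methods' t-test. Nog, which encodes noggin, a direct antagonist of BMP2, BMP4 and BMP7, had a log2 change of 0.01 (95% interval -0.50 to 0.52), negative under 4 scalings, down to -0.31. Chrdl1, a chordin-like antagonist named after its values were seen, varied widely, at 2.43, 4.72 and 3.64 in Axin2+/GFP+ cells, against 2.80, 2.23 and 1.77 in Axin2-/GFP- cells (log2 change 1.33, limma, adjusted p = 0.109). Among 7 proteases that process BMPs or cleave chordin, 1 was higher and 0 were lower, against 4.65% and 11.3% of all genes. This was Tll1, a tolloid-like metalloprotease, at 1.81, 1.97 and 2.01 in Axin2+/GFP+ cells, against 1.38, 1.40 and 1.11 in Axin2-/GFP- cells. Tll1 was dim, at a mean log2 value of 1.61 over the 6 samples. The difference in log2 value of 0.63 (limma, adjusted p = 0.0390) lost the call in the methods' t-test, under all 4 other scalings (0.31 to 0.51) and without Axin2+/GFP+ replicate 2 (0.61) or 3 (0.59) or Axin2-/GFP- replicate 1 (0.67), 2 (0.68) or 3 (0.54).

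The Smad genes of the pathway included 3 of 6 that were lower and 0 that were higher, with a median log2 change of -0.44, where 11.3% of all genes were lower. In the signal range of Smad5 and Smad7, from 3 to 4, 13.8% of genes were called lower, and in that of Smad4, from 5 to 6, 37.4%. Smad7, an inhibitory Smad that blocks type I receptors, read 2.91, 2.97 and 2.97 in Axin2+/GFP+ cells, against 4.60, 4.58 and 4.44 in Axin2-/GFP- cells. The difference in log2 value of -1.59 (SE 0.16, limma, adjusted p = 0.000570) passed in all 16 alternatives, the methods' t-test included. Smad5, which carries the signal of the BMP receptors, read 2.61, 2.91 and 3.003 in Axin2+/GFP+ cells, against 4.26, 3.95 and 4.51 in Axin2-/GFP- cells, which is a log2 change of -1.40 (limma, adjusted p = 0.00326) that missed the threshold only in the methods' t-test. Smad4, the partner shared with TGFβ signalling, had values of 4.36, 4.67 and 4.85 in Axin2+/GFP+ cells and 5.85, 5.72 and 5.55 in Axin2-/GFP- cells. The difference in log2 value of -1.08 (limma, adjusted p = 0.00708) was -0.62 after quantile normalization and -0.64 after cyclic loess, and was not called in either. Smad1, the other common carrier of BMP signals, had a log2 change of 0.25 (limma, adjusted p = 0.451). Smad6, named after its values were seen, went the other way from Smad7, with values of 2.78, 3.13 and 3.41 in Axin2+/GFP+ cells, against 2.42, 2.56 and 2.65 in Axin2-/GFP- cells. Its log2 change was 0.57 (limma, adjusted p = 0.0894). Of the 6 Smad genes 3 had a positive and 3 a negative change.

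Of 11 measured target genes, 2 were higher and 0 lower, against 4.65% and 11.3% of all genes. Id1, an inhibitor of bHLH transcription factors and an early BMP target, read 4.64, 4.13 and 3.82 in Axin2+/GFP+ cells, against 3.07, 3.44 and 3.07 in Axin2-/GFP- cells. The difference was 1.002 log2 units (SE 0.24, limma, adjusted p = 0.0244), which was no longer called without Axin2-/GFP- replicate 1 (0.94) or 3 (0.94) and when centred on the chemoreceptor genes (0.68). Dlx5, a homeobox gene of the osteoblast lineage, read 4.995, 5.56 and 4.71 in Axin2+/GFP+ cells, against 4.25, 4.04 and 4.001 in Axin2-/GFP- cells. The difference in log2 value of 0.99 (limma, adjusted p = 0.0237) was not called without Axin2-/GFP- replicate 1 (1.07), 2 (0.96) or 3 (0.94) or when centred on the chemoreceptor genes (0.67). The other Id genes were not called and had overlapping groups, with log2 changes of -0.35 for Id2 (95% interval -1.16 to 0.46), -0.29 for Id3 (-1.03 to 0.45) and 0.35 for Id4 (-0.31 to 1.02), and differences among the Id genes were not tested. Msx1 and Msx2 also had overlapping groups and were not called, with log2 changes of -0.03 (limma, adjusted p = 0.964) and 0.29 (limma, adjusted p = 0.294). Of the 11 target genes 7 had a positive and 4 a negative change.

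**Figure D4:**
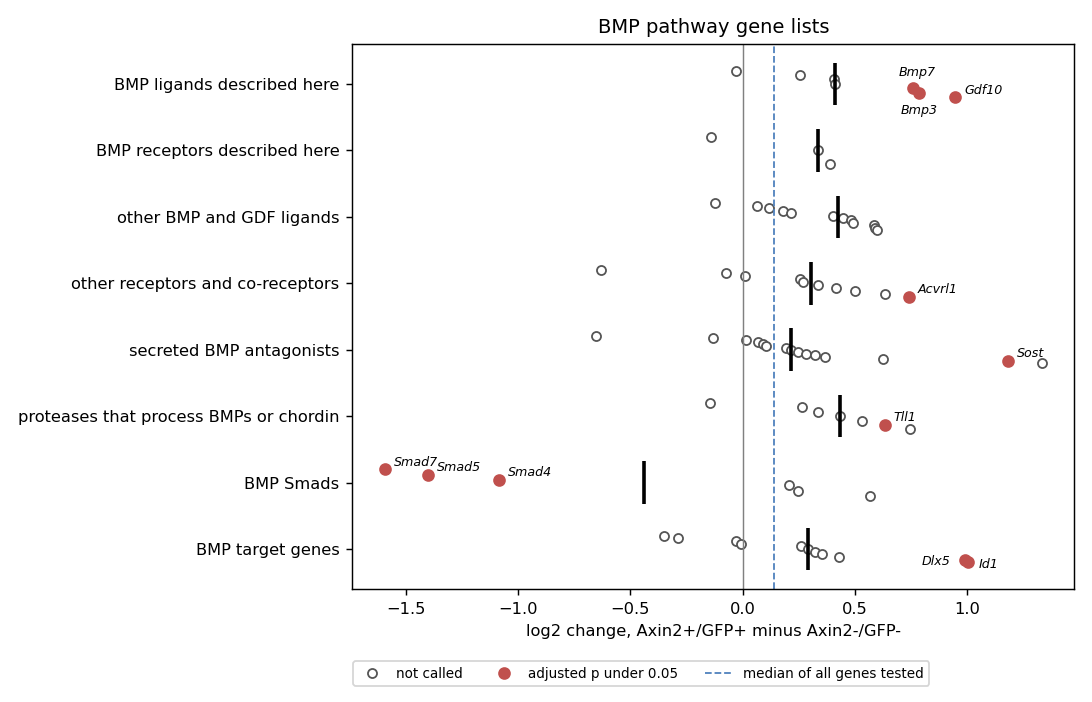
Log2 change between Axin2+/GFP+ and Axin2-/GFP- cells on the horizontal axis for the measured genes of 8 BMP pathway lists, with 1 point per gene (filled: adjusted p under 0.05), a black bar at each list's median and a dashed line at the median of all genes tested, 0.14. The called ligands lie between 0.76 and 0.95, and the 3 called Smads between -1.59 and -1.08.

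The sorted populations also differed in their content of blood cell transcripts, and in bulk samples fewer cells of a type and less RNA per cell cannot be told apart. Genes that mark B-lineage cells were lower for 13 of 13 measured, with a summed linear level of 101.5 to 110.0 in Axin2+/GFP+ samples and 1809 to 2450 in Axin2-/GFP- samples. Of 15 neutrophil lineage markers, 13 were higher and 0 lower, summing to 20436 to 22594 in Axin2+/GFP+ samples and 2884 to 9146 in Axin2-/GFP- samples. Among 8 osteoblast genes 4 were higher and 0 lower, summing to 2193 to 3072 in Axin2+/GFP+ samples and 633.1 to 915.0 in Axin2-/GFP- samples. Most of this sum came from Col1a1 and Col1a2, at mean log2 values of 9.69 and 9.05 over all samples. With no overlap, 6 of the 8 lay higher and 1, Alpl, lower, against 23.2% and 17.8% of all genes. Of 9 chondrocyte genes 2 were higher, of 10 macrophage markers 1 was lower, and of 6 erythroid genes 1 was higher and 1 lower. Over all genes 4.65% were higher and 11.3% lower. Of 10 genes used here to check the labelled suture mesenchyme, 1, Six2, was called higher and 0 lower. All 10 had a positive change, and 5 lay higher with no overlap, against 23.2% of all genes. The list includes Axin2 itself, which drives the reporter, so it is not independent of the sort. The part of these cell types in the values of the BMP genes was not tested.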

How the data were processed

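RNA of 6 samples was hybridised to Affymetrix whole-transcript arrays, 1 per sample. The authors deposited 1 log2 value per feature and sample, made with RMA in R 3.2.1 according to the submitters' processing notes. The background step and the level of the probe sets are not given in the sources available here. All 6 columns matched a sample and were used as deposited. Gene symbols came from the platform annotation; of 35557 features, 21797 carry 1 symbol, 1613 several (left out) and 12147 are unnamed here. Of those with 1 symbol, 21706 matched RefSeq (GRCm38.p6) by gene identifier, which changed 0 names. For 999 genes with several features the brightest was used; each BMP member had 1. Precision is limited by the number of arrays. Labels call the samples biological replicates, and p-values cover the spread between these pools.

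The lmFit and eBayes functions of limma 3.58.1 (R 4.3.3) gave the test, adjusted over 19946 genes. On simulated data with 50 genes changed at each size, it recovered 0% of log2 changes of 0.5 and 34% of those of 1. It recovered 74% of changes of 2 and 96% of those of 4, and 3.77% of its calls were false. The simulation held far fewer changed genes than were called here, and a gene that was not called may still differ. Named are all 10 members, up to 4 called genes of each pathway list, Acvr1, Nog and Id1, and the 5 genes closest to each called member; others were chosen after their values were seen. Members and lists were chosen with earlier results of these data known. Counts cover the listed genes that were measured here. Alternatives were a block for the replicate number, array weights, a variance trend, the methods' t-test, 4 other scalings (median, quantile, cyclic loess, chemoreceptor genes), a filter on dim features (mean log2 value under 2.05), the mean of a gene's features and each sample left out. Summed linear levels add 2 to the power of each log2 value.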

Additional observations from a re-analysis of the deposited data

How the results depend on the processing

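Of the 10 members, 3 were called higher with all samples and 0 lower. The number higher was 0 in the methods' t-test, 1 when the arrays were centred on chemoreceptor genes, and 1 to 2 with 1 sample left out; 0 were lower under every alternative run. Over all genes, 927 higher and 2262 lower became 211 and 518 in the methods' t-test, 441 higher after median centring, 210 and 3980 when centred on chemoreceptor genes, 1266 lower after quantile normalization and 1467 lower after cyclic loess. With 1 sample left out, 239 to 852 were higher and 1371 to 2081 lower. Of the further pathway genes, 5 higher and 3 lower became 0 and 1 in the methods' t-test, 1 and 5 when centred on chemoreceptor genes, and with 1 sample left out 1 to 10 were higher and 3 lower, where 10 were higher without Axin2+/GFP+ replicate 1. The cause was not tested. The scalings moved the median log2 change of all genes to 0.02 (median centring), 0.06 (quantile), 0.01 (cyclic loess) and -0.18 (chemoreceptor genes). Members that changed sign were not called: Bmp6 at -0.064 when centred on chemoreceptor genes, Bmp5 at -0.16 to 0.068 and Bmpr2 at -0.31 to 0.087 with 1 sample left out. The positive values of Bmp5 among these were 0.0067, 0.034, 0.068 and 0.0095. Under these scalings, in the same order, Acvr1 was at -0.11, -0.16, -0.23 and -0.31 and Nog at -0.11, -0.13, -0.19 and -0.31. With 1 sample left out Acvr1 ran from -0.11 to 0.15 and Nog from -0.19 to 0.22. The filter on dim features left out Bmp2, Bmp5, Bmpr1a, Bmpr1b and Tll1, which have no value under it.

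Same-numbered samples of the populations deviated together only weakly, with correlations of 0.03, 0.01 and 0.05 across genes. Samples of different number had correlations from -0.05 to 0.02. The labels do not say whether same-numbered samples came from the same pool of mice, and correlations this small cannot settle it. With the replicate number as a block, 2 members were higher, Bmp3 and Gdf10, since Bmp7 was no longer called (limma, adjusted p = 0.0650). Of the pathway genes 4 were higher, without Tll1 (limma, adjusted p = 0.0711), and over all genes 643 were higher and 2201 lower. Not every sample correlated best with its own number.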
